A study of Mus musculus with 4 samples.

Results

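Collagens are the main proteins of the extracellular matrix, and 10 of their genes were followed here in mouse fibroblasts lacking SIN1 and in wild type fibroblasts. The genes are those of the fibrillar types I, III and V, of type VI and of type IV. They were represented by 16 probe sets of the 45037 tested, each chosen and assigned to its gene by its manufacturer number. Of the 10 genes, 6 had 2 probe sets and 4 had 1. The deposited table itself gives no gene names, so the genes stand as assigned by number.

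The study compared 2 arrays of SIN1 KO cells with 2 arrays of wild type cells, all of strain C57BL/6 and grown in DMEM. SIN1, encoded by Mapkap1, is a subunit of mTOR complex 2, a kinase complex best known for acting on AKT. The labels call the cells murine epithelial fibroblasts and also MEFs, describe the SIN1 KO cells as altered in metabolism, and give no age or passage. Separate cultures, lines or embryos are not named for the arrays, so any test measures a spread that may be technical. The level of Mapkap1 and of markers of epithelial or other cells was not analysed here. Values are log2 expression values, so a difference of 1 is a 2-fold change.

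A collagen molecule is a triple helix of 3 chains, each built on a short repeat that begins with glycine. Types I, III and V assemble together into the banded fibrils of connective tissue, in which type V helps to start fibrils and to set their diameter. Type IV forms the sheet-like network of basement membranes, and type VI forms beaded microfilaments at the border between cells and their matrix. Fibroblasts are a main source of the fibrillar types and of type VI.

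The arrays did not group by genotype. SIN1 KO 2 and wild type 2 were the most distant pair, with 29.4% of probe sets at least 1 log2 unit apart. SIN1 KO 1 and wild type 1 were the closest, with 8.01%, against 14.1% between the SIN1 KO arrays and 16.5% between the wild type arrays. Each collagen difference is therefore given with every array left out in turn. Array medians were 4.23 and 4.31 in SIN1 KO and 4.28 and 4.32 in wild type. A background level was taken for each array from its brightest Bacillus subtilis control probe set, 3.75 and 4.27 in SIN1 KO and 4.05 and 3.91 in wild type. The 18 hybridisation controls, transcripts of bacterial and phage genes spiked into the samples, were lower in SIN1 KO by 0.32 log2 units (11.47 ± 0.09 in SIN1 KO and 11.79 ± 0.09 in wild type, SD, n = 2 each). All 18 had both SIN1 KO arrays below both wild type arrays. Scaling the arrays to them added that amount to every difference, and their part in the collagen differences was not tested. The Gapdh control probe sets, read as 3' minus 5', stood at 1.09 and 0.64 in SIN1 KO and at 0.69 and 0.72 in wild type, and those of beta-actin at -0.33 and -0.31 in SIN1 KO and at -0.27 and -0.40 in wild type. The part of this measure of RNA integrity in the collagen differences was not tested.

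Across the 10 genes, the collagens did not differ in a single direction. On the deposited values, the fibrillar genes Col1a1, Col1a2, Col3a1 and Col5a2 were lower in SIN1 KO by their gene means. Of these, Col1a2 lay near background, and the dimmer Col3a1 probe set was above background on wild type 2 alone. The probe sets of Col5a1 had no common direction. The type VI genes Col6a1 and Col6a2 were higher, and the type IV genes were highest on SIN1 KO 2 but overlapped between genotypes. In limma's test, with Benjamini-Hochberg adjustment over the whole table, 0 of the 16 passed (adjusted p 0.82 to 0.979), and 0% of all tested probe sets did in either direction. At an unadjusted limma p under 0.05, 4 of the 16 were lower in SIN1 KO and 0 were higher, while of all tested probe sets 2.57% were lower and 5.57% passed in either direction. Both SIN1 KO arrays lay below both wild type arrays for 6 of the 16 and above them for 2. Over all tested probe sets those shares were 14.9% and 20.4%. The 6 without overlap on the lower side all belonged to the 10 fibrillar probe sets. Of these 10, 9 had a difference below 0, as had 46.1% of all tested probe sets. Each fibrillar gene has 2 probe sets, so these are not counts of separate genes. The 9 include 1427884_AT of Col3a1, at -0.03 with values under background raised to it. They also include 1423110_AT of Col1a2 and 1416741_AT of Col5a1, which turned to 0.05 and 0.03 when scaled to the hybridisation controls. The median difference was -0.29 over the 16 and 0.04 over all. The median over the 16 turned to 0.03 when the arrays were scaled to the hybridisation controls. This scaling adds the same amount to every probe set, so the distance between the medians did not change.

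**Figure D1:**
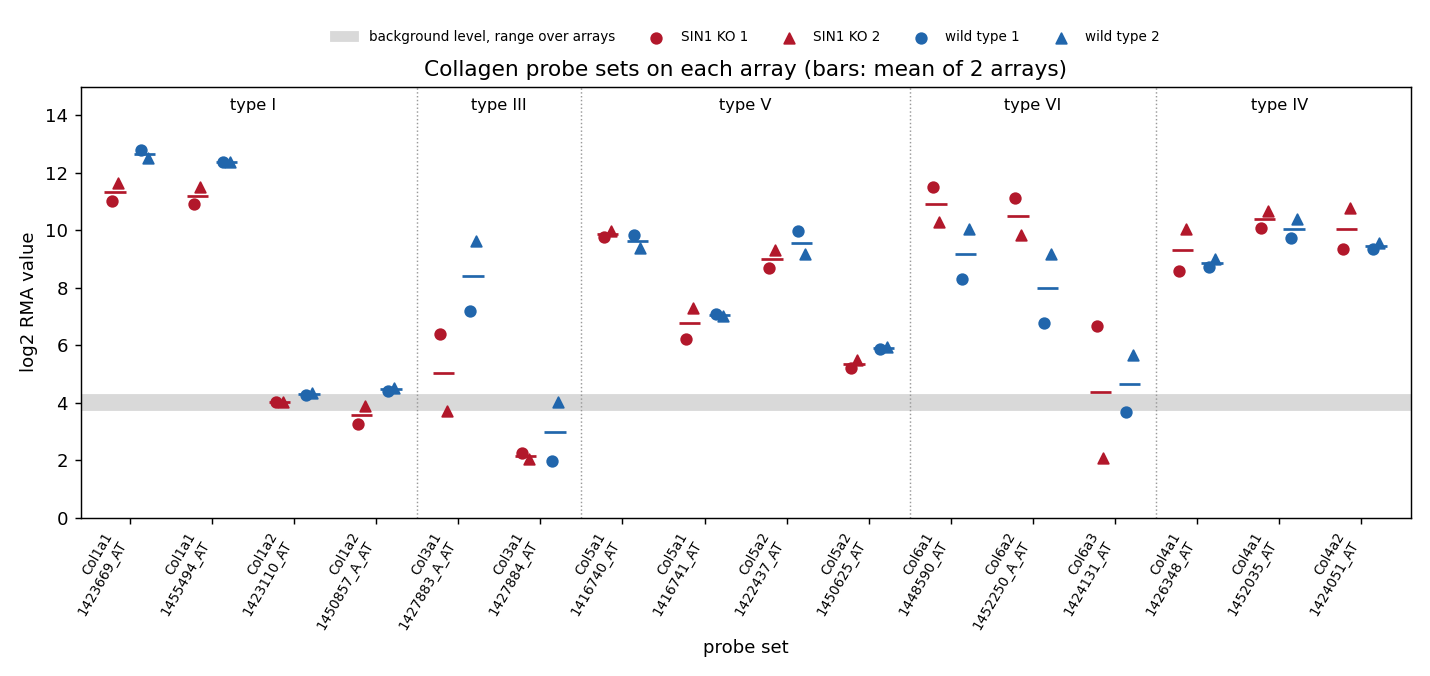
Log2 RMA value (vertical axis) of each collagen probe set (horizontal axis) on each array, with SIN1 KO in red to the left of wild type in blue, circles for number 1 arrays, triangles for number 2 arrays and short bars for the mean of 2 arrays. The grey band spans the background level of the arrays, 3.75 to 4.27. Both Col1a1 probe sets sit lower in SIN1 KO than in wild type, Col6a1 and Col6a2 sit higher, and the probe sets of Col1a2 lie close to the grey band.

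Col1a1 encodes the alpha1 chain of type I collagen, the most abundant collagen of skin, bone and tendon and a defining product of fibroblasts. Probe set 1423669_AT measured 11.01 and 11.65 in the SIN1 KO arrays, against 12.81 and 12.51 in the wild type arrays. The second Col1a1 probe set, 1455494_AT, measured 10.92 and 11.50 in the SIN1 KO arrays, against 12.37 and 12.37 in the wild type arrays. Every SIN1 KO value of both probe sets was below every wild type value, and all were at least 7.17 log2 units above the array's background. The difference was -1.33 (SE 0.34, 95% interval -2.24 to -0.42) for 1423669_AT, 2.52-fold lower in SIN1 KO. It was -1.16 (SE 0.31, 95% interval -2.00 to -0.33) for 1455494_AT, 2.24-fold lower. The limma adjusted p was 0.82 for both probe sets, and the unadjusted limma p was 0.0144 for 1423669_AT and 0.017 for 1455494_AT. Among the 45037 probe sets, 2.60% had a difference as low as that of 1423669_AT and 3.86% as low as that of 1455494_AT.

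The Col1a1 groups did not overlap, so a left-out array could change the size of the difference but not its direction. With each array left out the difference ranged from -1.65 to -1.01 for 1423669_AT and from -1.45 to -0.88 for 1455494_AT. The number 1 arrays differed by -1.80 and -1.45 at these probe sets, and the number 2 arrays by -0.87 and -0.87. The labels do not say that arrays of the same number belong together. Scaled to the hybridisation controls, which moved in the same direction, the differences were -1.01 and -0.84. As in any RNA pool, fewer Col1a1-expressing cells and less Col1a1 RNA per cell cannot be told apart.

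Col1a2 encodes the alpha2 chain that joins alpha1 chains in the usual type I molecule. Its probe sets lay near background in both genotypes. Probe set 1450857_A_AT measured 3.25 and 3.87 in the SIN1 KO arrays, both under their background, against 4.42 and 4.51 in the wild type arrays, which lay 0.37 and 0.60 above theirs. Measured against the background level, it was at least 1.37-fold lower in SIN1 KO (fitted difference -0.91, SE 0.32, limma adjusted p 0.82). That bound depends on the control chosen, since SIN1 KO 2 was above the next brightest control of its array, at 3.64. The fitted difference was -0.59 with the arrays scaled to the hybridisation controls. Probe set 1423110_AT measured 4.03 and 4.03 in the SIN1 KO arrays, on either side of their background, and 4.28 and 4.33 in the wild type arrays. The groups did not overlap, but the difference of -0.27 (SE 0.24, limma adjusted p 0.829) turned to 0.05 after scaling to the hybridisation controls. The mean over the type I genes was 7.53 ± 0.33 in SIN1 KO and 8.45 ± 0.03 in wild type (SD, n = 2 each), a difference of -0.92, or -0.60 after scaling to the hybridisation controls.

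The promoter window of Col1a2 is shown because this gene, the partner of Col1a1, lay near background in fibroblasts. RefSeq windows, on build GRCm38.p6, run from 250 bases before to 50 bases after an annotated start, and 8 of the 10 genes had such a window in the table used. Col1a1 and Col5a2 were the others. The window lies at chr6:4505368-4505667 on the plus strand, and capitals mark the CCAAT box, CCAAT or its complement ATTGG, bound by the factor NF-Y.
Col1a2: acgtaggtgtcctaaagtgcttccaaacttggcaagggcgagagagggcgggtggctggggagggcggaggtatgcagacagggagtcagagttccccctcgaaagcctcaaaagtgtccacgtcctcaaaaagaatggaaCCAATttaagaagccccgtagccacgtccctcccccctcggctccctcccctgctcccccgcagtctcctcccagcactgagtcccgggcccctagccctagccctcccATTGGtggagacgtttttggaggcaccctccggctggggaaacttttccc
It held 1 match on each strand, and 37.4% of the 32851 windows in the table held at least 1 on either strand. The other windows of these genes with a match were those of Col4a1 and Col4a2. These matches describe the sequence and were not tested against expression.

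Col3a1 encodes the single chain of type III collagen, which accompanies type I in skin, vessels and healing wounds. Probe set 1427883_A_AT measured 6.38 and 3.70 in the SIN1 KO arrays, against 7.18 and 9.61 in the wild type arrays. The groups did not overlap, yet SIN1 KO 2 and wild type 2 stood far from their partners, with a gap of 2.67 between the SIN1 KO arrays and 2.42 between the wild type arrays. A gap as large as that between the wild type arrays was found in 1.27% of all tested probe sets, while the SIN1 KO gap was at least 2.10, since SIN1 KO 2 lay under its background of 4.27. The difference was -3.36 (SE 1.24, 95% interval -6.69 to -0.02), with an unadjusted limma p of 0.049 and an adjusted p of 0.82. Raising SIN1 KO 2 to its background gave a difference of -3.07. Without SIN1 KO 2 the difference was -2.02. With that array at its background, it was -1.86 when wild type 2 was left out, -4.29 when wild type 1 was and -4.12 when SIN1 KO 1 was. Between the number 1 arrays alone it was -0.81, and between the number 2 arrays -5.34 with SIN1 KO 2 at its background, a bound on the size of that difference. No label pairs arrays by number, so these are 2 of the possible comparisons between single arrays.

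The second Col3a1 probe set, 1427884_AT, measured 2.26 and 2.05 in the SIN1 KO arrays and 1.95 and 4.03 in the wild type arrays. Of these values wild type 2 alone was above background, by 0.12, so this probe set gave no usable difference (fitted -0.83, SE 0.74, limma adjusted p 0.828). Both Col3a1 probe sets had their highest value on wild type 2.

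Type V collagen combines the chains of Col5a1 and Col5a2 and sits inside type I fibrils. Col5a1 gave no common direction. Probe set 1416740_AT measured 9.78 and 9.97 in the SIN1 KO arrays and 9.85 and 9.40 in the wild type arrays, a difference of 0.25 (SE 0.29, 95% interval -0.54 to 1.04, limma adjusted p 0.863) that was 0.57 with the arrays scaled to the hybridisation controls and 0.02 without wild type 2. Probe set 1416741_AT measured 6.23 and 7.31 in the SIN1 KO arrays and 7.10 and 7.01 in the wild type arrays, a difference of -0.29 (SE 0.44, 95% interval -1.47 to 0.89, limma adjusted p 0.895). At 1416741_AT the SIN1 KO arrays enclosed the wild type arrays, and its difference turned to 0.25 without SIN1 KO 1 and to 0.03 after scaling to the hybridisation controls.

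The probe sets of Col5a2 both had a difference of -0.56. Probe set 1450625_AT measured 5.21 and 5.49 in the SIN1 KO arrays, below both wild type arrays at 5.87 and 5.95 (SE 0.26, 95% interval -1.26 to 0.14, limma adjusted p 0.82). Probe set 1422437_AT measured 8.70 and 9.31 in the SIN1 KO arrays and 9.96 and 9.17 in the wild type arrays, which overlapped (SE 0.41, limma adjusted p 0.82). With each array left out, the difference was -0.70 to -0.42 for 1450625_AT and -0.96 to -0.17 for 1422437_AT. Scaled to the hybridisation controls, both were -0.24. Col5a2 and Col3a1 are neighbours on mouse chromosome 1 with 0 annotated genes between them in the RefSeq table. Their array patterns differed: the Col5a2 probe sets were lowest on SIN1 KO 1, and 1427883_A_AT of Col3a1 was lowest on SIN1 KO 2. The mean over the type V genes was 7.75 ± 0.38 in SIN1 KO and 8.04 ± 0.22 in wild type (SD, n = 2 each). That difference of -0.29 turned to 0.03 under scaling to the hybridisation controls, and it ranged from -0.56 without SIN1 KO 2 to -0.02 without SIN1 KO 1.

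**Figure D2:**
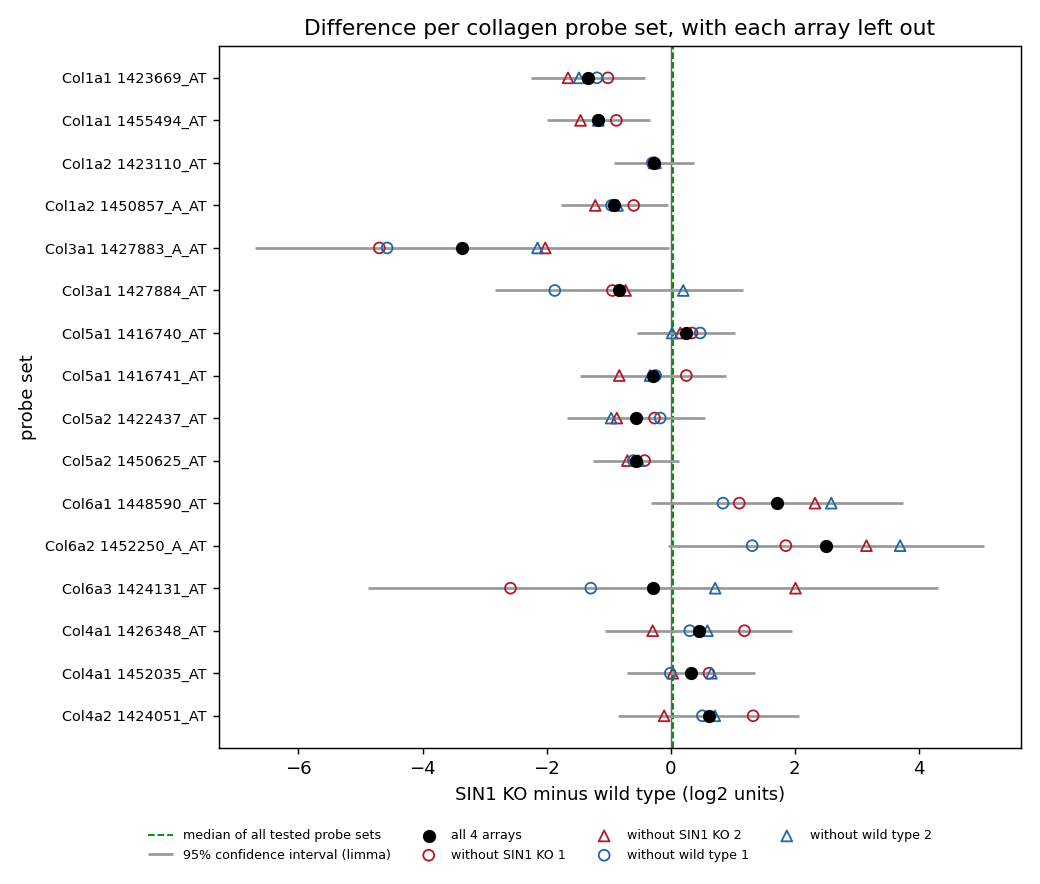
SIN1 KO minus wild type in log2 units (horizontal axis) for each collagen probe set (vertical axis), with the limma 95% interval in grey, the fit of all 4 arrays in black and the value without each array as an open symbol. The dashed line marks the median of all tested probe sets, 0.04. The Col1a1 symbols all lie between -1.65 and -0.88, those of Col6a1 and Col6a2 lie above 0, and those of Col6a3 spread from -2.58 to 2.01.

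Type VI collagen is assembled from alpha1, alpha2 and alpha3 chains, encoded by Col6a1, Col6a2 and Col6a3. Col6a1 and Col6a2 were the collagens with the highest differences, on the side opposite to type I. Col6a1, by probe set 1448590_AT, measured 11.51 and 10.29 in the SIN1 KO arrays, against 8.31 and 10.05 in the wild type arrays. Col6a2, by probe set 1452250_A_AT, measured 11.13 and 9.83 in the SIN1 KO arrays, against 6.78 and 9.17 in the wild type arrays. Both genes had the same order of arrays, highest on SIN1 KO 1, then SIN1 KO 2, then wild type 2, and lowest on wild type 1. The groups did not overlap for either gene, by a margin of 0.23 for Col6a1 and 0.66 for Col6a2 between SIN1 KO 2 and wild type 2.

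The Col6a1 difference was 1.72 (SE 0.76, 95% interval -0.32 to 3.75), 3.29-fold higher in SIN1 KO, with an unadjusted limma p of 0.0807 and an adjusted p of 0.82. The Col6a2 difference was 2.51 (SE 0.95, 95% interval -0.04 to 5.05), 5.68-fold higher, with an unadjusted limma p of 0.0523 and an adjusted p of 0.82. Among all tested probe sets, 1.14% had a difference as high as Col6a1 and 0.462% as high as Col6a2. Much of the size came from wild type 1. Without that array the differences were 0.84 for Col6a1 and 1.31 for Col6a2, and without SIN1 KO 1 they were 1.11 and 1.86. The gap between the wild type arrays was 1.75 at Col6a1 and 2.38 at Col6a2, and gaps as large occurred in 4.03% and 1.34% of all tested probe sets.

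Col6a3, whose alpha3 chain is the largest of the type VI chains, did not follow its partners. Probe set 1424131_AT measured 6.67 and 2.08 in the SIN1 KO arrays and 3.66 and 5.66 in the wild type arrays. SIN1 KO 1 and wild type 2 were high while SIN1 KO 2 and wild type 1 were under their background, so each genotype had a high and a low array. With values under background raised to it, the gap was at least 2.40 between the SIN1 KO arrays and at least 1.62 between the wild type arrays. The difference of -0.29 (SE 1.71, 95% interval -4.88 to 4.30, limma adjusted p 0.979) turned to 2.01 when SIN1 KO 2 was left out and to -2.58 when SIN1 KO 1 was. It was 0.72 without wild type 2, -1.29 without wild type 1 and 0.04 under scaling to the hybridisation controls. With the values under background raised to it the difference was 0.62, so its sign depends on values that were not above background.

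Col6a1 and Col6a2 are neighbours on mouse chromosome 10 with 0 protein-coding genes between them, while Col6a3 lies on chromosome 1. The windows of the first pair are shown because these genes varied together over the 4 arrays. The Col6a1 window lies at chr10:76725995-76726294 and the Col6a2 window, that of its outermost annotated start, at chr10:76623581-76623880, both on the minus strand of GRCm38.p6. Capitals mark GTAAACA, the consensus of FoxO factors, in Col6a1 and the GC box, GGGCGG or its complement CCGCCC, in Col6a2.
Col6a1: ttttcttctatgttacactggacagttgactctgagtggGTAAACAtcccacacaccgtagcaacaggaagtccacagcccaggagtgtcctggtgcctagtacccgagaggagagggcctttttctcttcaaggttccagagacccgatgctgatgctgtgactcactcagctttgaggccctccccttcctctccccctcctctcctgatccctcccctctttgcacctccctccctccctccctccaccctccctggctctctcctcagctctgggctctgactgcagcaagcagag
Col6a2: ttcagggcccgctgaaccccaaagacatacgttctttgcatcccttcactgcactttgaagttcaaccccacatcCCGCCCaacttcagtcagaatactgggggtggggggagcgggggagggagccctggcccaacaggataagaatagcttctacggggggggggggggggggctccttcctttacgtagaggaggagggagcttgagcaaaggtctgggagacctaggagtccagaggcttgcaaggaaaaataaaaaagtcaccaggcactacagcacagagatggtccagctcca
The windows shared none of the motifs searched. GTAAACA or its complement TGTTTAC stood in 3.6% of the 32851 windows and, of the 9 windows of these collagen genes, in that of Col6a1. A GC box on either strand stood in 35.7% of all windows and in 6 of the 9, and TATAA or its complement TTATA in 24.9% of all and in 1 of the 9, that of Col3a1. The motifs were searched with the differences known, and a match describes letters only.

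**Figure D3:**
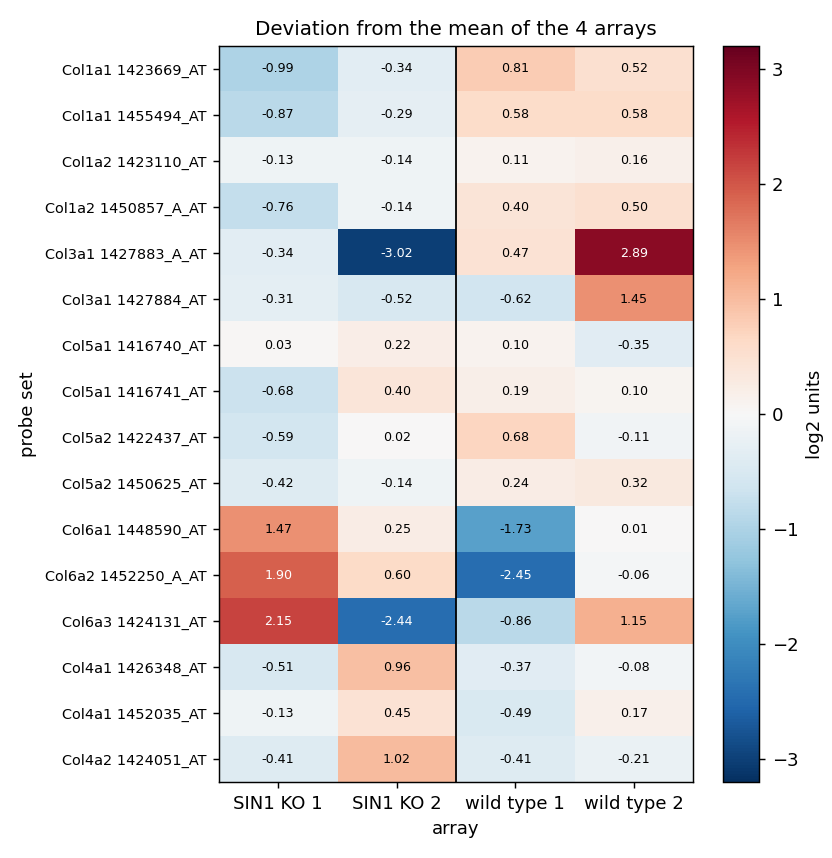
Deviation of each collagen probe set (rows) on each array (columns) from its own mean over the 4 arrays, in log2 units, red above and blue below that mean. The Col6a1 and Col6a2 rows share a pattern that is highest on SIN1 KO 1 and lowest on wild type 1, the type IV rows are highest on SIN1 KO 2, and Col6a3 alternates between 2.15 on SIN1 KO 1 and -2.44 on SIN1 KO 2.

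Col4a1 and Col4a2 encode the alpha1 and alpha2 chains that make up the widespread form of type IV collagen in basement membranes. Col4a2, by probe set 1424051_AT, measured 9.33 and 10.77 in the SIN1 KO arrays and 9.34 and 9.54 in the wild type arrays. Col4a1 measured 8.57 and 10.05 in the SIN1 KO arrays and 8.72 and 9.01 in the wild type arrays at 1426348_AT. At 1452035_AT Col4a1 measured 10.09 and 10.68 in the SIN1 KO arrays and 9.73 and 10.39 in the wild type arrays. All 3 probe sets were highest on SIN1 KO 2, while SIN1 KO 1 was below at least 1 wild type array in each.

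The differences were 0.61 (SE 0.55, 95% interval -0.85 to 2.08, limma adjusted p 0.827) for Col4a2, and 0.45 (SE 0.56, adjusted p 0.87) and 0.33 (SE 0.38, adjusted p 0.864) for 1426348_AT and 1452035_AT of Col4a1. Without SIN1 KO 2 they were -0.11, -0.29 and 0.03, so the higher level of Col4a2 and of 1426348_AT rested on that array. The difference at 1452035_AT also fell away without wild type 1, to -0.00585. The mean over both genes was 9.95 ± 0.87 in SIN1 KO and 9.45 ± 0.24 in wild type (SD, n = 2 each). It was 9.33 on SIN1 KO 1 and 10.57 on SIN1 KO 2, against 9.28 and 9.62 in the wild type arrays. That difference of 0.50 was 0.82 after scaling to the hybridisation controls, which gave 0.93 for Col4a2 and 0.77 and 0.65 for 1426348_AT and 1452035_AT of Col4a1.

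Col4a1 and Col4a2 are transcribed in opposite directions from neighbouring starts. Their windows are shown because the genes share this stretch and all their probe sets were highest on SIN1 KO 2. The order of the other arrays differed, with wild type 1 lowest at 1452035_AT of Col4a1 and SIN1 KO 1 lowest at Col4a2. On GRCm38.p6 the Col4a1 window lies at chr8:11312777-11313076 on the minus strand and the Col4a2 window at chr8:11312555-11312854 on the plus strand. The annotated starts are 21 bases apart, and capitals mark the 78 bases that both windows hold, each the reverse complement of the other.
Col4a1: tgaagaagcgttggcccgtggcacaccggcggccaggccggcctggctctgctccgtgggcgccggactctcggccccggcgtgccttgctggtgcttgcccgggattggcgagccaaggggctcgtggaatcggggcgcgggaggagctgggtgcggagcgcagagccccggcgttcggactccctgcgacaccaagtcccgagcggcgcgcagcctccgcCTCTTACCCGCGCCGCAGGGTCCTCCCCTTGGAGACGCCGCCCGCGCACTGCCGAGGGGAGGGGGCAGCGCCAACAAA
Col4a2: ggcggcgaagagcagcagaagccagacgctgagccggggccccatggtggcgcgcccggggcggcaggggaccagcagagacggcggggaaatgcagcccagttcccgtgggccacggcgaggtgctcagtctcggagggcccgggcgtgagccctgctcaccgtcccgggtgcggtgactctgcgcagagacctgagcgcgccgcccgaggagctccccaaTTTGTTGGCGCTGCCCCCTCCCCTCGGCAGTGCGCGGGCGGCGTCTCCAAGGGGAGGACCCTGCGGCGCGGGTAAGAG
Each window held 1 CCAAT box, in Col4a1 as ATTGG, outside the shared stretch, and in Col4a2 as CCAAT, whose final T is the first shared base. The shared stretch and the matches describe the sequence and were not tested against expression.

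By type, the groups did not overlap for types I and III and overlapped for types V, VI and IV. The type III mean, which includes the dim probe set 1427884_AT, was 3.60 ± 1.02 in SIN1 KO and 5.69 ± 1.59 in wild type (SD, n = 2 each). Its difference of -2.10 was -1.37 without SIN1 KO 2, -0.97 without wild type 2, -2.82 when SIN1 KO 1 was left out and -3.22 when wild type 1 was, and it was -3.36 with the brighter probe set alone. The type VI mean, 8.58 ± 1.68 in SIN1 KO and 7.27 ± 1.45 in wild type (SD, n = 2 each), differed by 1.31. It was 0.13 without SIN1 KO 1 and 0.29 without wild type 1. The fibrillar genes as a class averaged 6.78 and 6.89 in the SIN1 KO arrays, against 7.58 and 7.89 in the wild type arrays, a difference of -0.90. It ranged from -1.06 to -0.75 with each array left out and was -0.58 after scaling to the hybridisation controls. The means of types I, III and VI and of the fibrillar class include values under background, left as deposited. Raising such values to background moved the differences of Col1a2 to -0.15 at 1423110_AT and -0.45 at 1450857_A_AT. It moved those of Col3a1 to -3.07 at 1427883_A_AT and -0.03 at 1427884_AT, and that of Col6a3 to 0.62. The means were not taken again with raised values. All type and class means describe chosen members and carry no test, and 2 arrays against 2 could not give an exact two-sided permutation p below 0.333.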

How the data were processed

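Expression was measured on 4 arrays, 2 of SIN1 KO and 2 of wild type cells. Per the labels' protocols, total RNA was extracted by a guanidine and acid phenol method and labelled with biotin (NuGEN Encore). The authors deposited log2 values made with RMA, per the submitters' processing notes, with its version and settings not given in the sources used here; the log2 scale was read from the range and like medians of the columns. No further normalization was applied. After leaving out 64 named control probe sets of 45101, limma 3.58.1 in R 4.3.3 was fitted (lmFit, eBayes) with Benjamini-Hochberg adjustment at 0.05, with 2 residual and 2.38 prior degrees of freedom. The limma fit was tested on simulated data, and the other steps were not. The number of arrays limits precision, with a median standard error of 0.33. All 16 members are named, as the rule for named genes asked. The members, lists and background level were chosen with earlier results of these data known. Planned lists of collagen-processing, receptor and cell marker genes were not analysed here, since no table used pairs their probe sets with genes. Alternatives were other scalings, a filter on dim probe sets, other variance priors, replicate blocks and left-out arrays. Figures used matplotlib 3.10.9 in Python 3.11.15.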

Additional observations from a re-analysis of the deposited data

How the results depend on the processing

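Over 189 alternative values of the 16 probe sets, 0 passed limma's adjusted threshold (lowest adjusted p 0.304) and 10 changed sign, while 9 probe sets kept their sign under each planned setting that gave them a value (the filter left out 3 of the 16). The priors, blocks and filter leave a fitted difference as it is, so they could not change a sign. Nor could a left-out array where the groups did not overlap. All 10 changes came from left-out arrays or from scaling to the hybridisation controls. That scaling turned Col1a2 1423110_AT (0.052), Col5a1 1416741_AT (0.033), Col6a3 1424131_AT (0.035), the median of the 16 (0.034) and type V (0.030). It gave -0.60 for type I and -0.58 for the fibrillar mean. Without overlap, 5 collagen probe sets were higher and 5 lower under this scaling, against 2 and 6 on the deposited values. The share over all probe sets was not taken, so these counts are not read as a collagen result. By unadjusted limma p the scaling left 1 collagen higher and 2 lower, against 5381 and 370 over all. With an array left out, signs turned for Col5a1 1416741_AT (-0.83 to 0.25), Col6a3 (-2.58 to 2.01), Col3a1 1427884_AT (-1.87 to 0.20), Col4a2 (-0.11 to 1.33), Col4a1 1426348_AT (-0.29 to 1.19), Col4a1 1452035_AT (-0.00585 to 0.66) and type IV (-0.12 to 1.12).

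The filter on level left the dimmer probe sets out of the fit and kept 13 of the 16. Among all the probe sets it kept, 5 were higher past the adjusted threshold, and 705 were higher and 619 lower unadjusted. The unfiltered counts of 1350 and 1159 come from a larger number of probe sets. Shares were not taken for the filtered fit, so the lower counts are not read as a loss of differences. By unadjusted limma p, 1 collagen was higher and 3 were lower with the filter. Median centring gave 1 higher and 4 lower, against 1513 and 1072 over all. A trended prior gave 2 higher and 3 lower, against 1313 and 1199 over all. The replicate block gave 663 and 630 over all and 2 lower collagens. Arrays of the same number deviated oppositely (r = -0.415), so the crossed pairing was added as a block after the data were seen. It gave 2899 and 3473 over all, with 2 collagens higher and 4 lower. With 2 arrays per group the crossed r is 0.415 by construction, so these larger counts say nothing about a true pairing. The lowest adjusted limma p of the 16, 0.304, came from this block, against 0.383 for the planned scaling to the hybridisation controls. Left-out arrays gave 516 to 1522 higher and 429 to 2351 lower over all, 0 to 2 collagens higher and 1 to 3 lower by unadjusted p, and, since fewer arrays loosen that rule, 3 to 7 higher and 7 to 10 lower without overlap. With an array left out, the share of all probe sets without overlap was not taken either. Whether the collagen counts without overlap exceed it is therefore not known. The brightest probe set of each gene kept the direction of each type mean. With the second highest control as background, also added later, 13 probe sets were above it on every array, against 11. Raising values under background to it, added later too, turned Col6a3 1424131_AT to 0.62.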
